A study of Drosophila melanogaster with 12 samples.

Results

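The genes described here are 45 factors of nucleolar ribosome biogenesis, measured by RNA-seq in cells sorted from Drosophila larval wing discs. They were chosen by gene symbol and function, as genes for rRNA processing, for the small nucleolar ribonucleoprotein particles (snoRNPs), for the RNA exosome and for ribosome assembly, with ribosomal proteins left out. The paper had already reported ribosome biogenesis genes, with Tsr1 as an example, as lower in hinge cells and rising after irradiation in these samples. The member counts and medians below are therefore not independent evidence for that result. All 45 were among the 17753 genes of the count table, and all 45 were among the 10617 genes that passed the filter on low counts and were tested. By role they fall into 6 snoRNP core proteins, 9 exosome subunits and cofactors, 9 small subunit factors, 15 large subunit factors and 6 other nucleolar factors.

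Ribosomes are assembled in the nucleolus, where RNA polymerase I makes a long rRNA precursor. snoRNPs guide its chemical modification, nucleases that include the exosome trim and cut it, and assembly factors, among them helicases and GTPases, fold it with ribosomal proteins into the small and large subunits before export. In growing imaginal discs this pathway sets how much protein a cell can make, and many of its genes are targets of the transcription factor Myc.

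The larvae carried 30A>G-trace, with w1118 as the other parent. G-trace is a lineage reporter in which RFP marks cells where the driver is active and GFP marks cells where it has been active and their descendants, and the 30A driver acts in the hinge of the disc. RFP+GFP+ hinge cells (POS) and RFP-GFP- cells from the rest of the disc (NEG) were separated by flow cytometry, and cells with GFP alone were not sequenced. POS and NEG cells were collected without X-rays (-IR, 24 h after mock irradiation), 24 h after irradiation (IR+24h) and 48 h after it (IR+48h), with 2 libraries in each of 6 groups, 12 in all, and each library pooled discs from several crosses and sorting runs. The IR+48h pools mixed larvae irradiated at different ages, and -IR cells were taken only at 24 h, so irradiation and larval age cannot be told apart in the IR+48h changes.

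The libraries held 4211088 to 19940040 counts each (median 14939250), and NEG -IR replicate 1 was the shallowest. Levels are given as CPM, counts relative to the library total, scaled by TMM factors. No member fell to the floor of 3 counts, which was 0.146 to 0.726 CPM, and the lowest member count was 33. The hinge genes zfh2 and Sox15 were called higher in POS at all 3 times, zfh2 with 1488 to 3351 CPM in POS against 198 to 296 CPM in NEG libraries. Cells other than disc epithelium differed between the sorted pools. The 5 markers of muscle precursors (zfh1, twi, Him, htl and stumps) summed to 15.4 and 43.1 CPM in POS -IR, 108 and 100 CPM in POS IR+24h and 225 and 244 CPM in POS IR+48h. In NEG cells the same sum was 641 and 1788 CPM for -IR, 918 and 554 CPM at IR+24h and 568 and 1287 CPM at IR+48h, and none of the 5 was at 0 in any library. All 5 were called lower in POS -IR than in NEG -IR. The 6 hemocyte markers summed to 5.72 to 14.8 CPM over the POS libraries and 62.9 to 293 CPM over the NEG libraries, and He was at 0 in 3 of the POS libraries. The part of these cells in the results below was not tested.

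**Figure D1:**
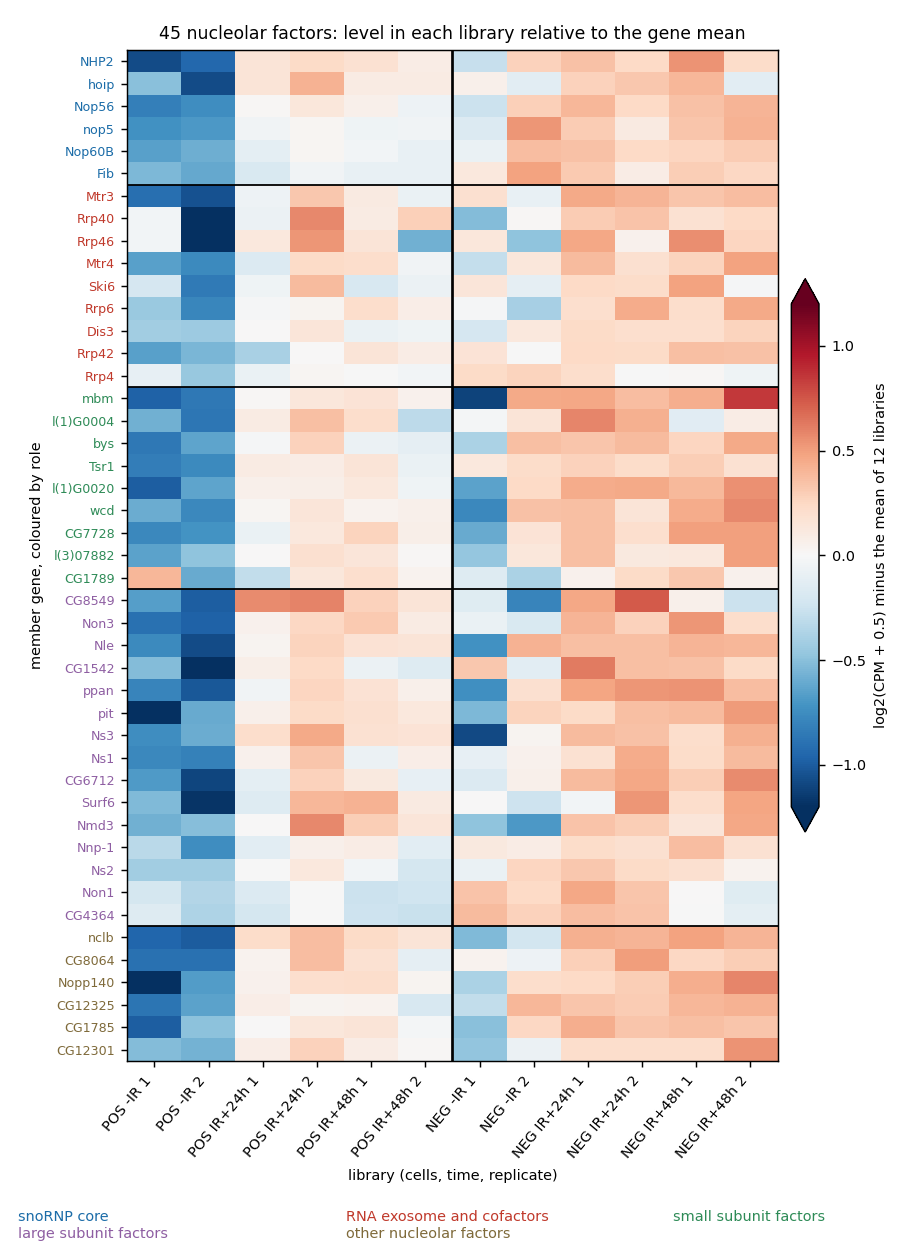
Level of each of the 45 members (rows, coloured and grouped by role) in each of the 12 libraries (columns, POS left of NEG), as log2(CPM + 0.5) minus the mean of that gene over the 12 libraries. Both POS -IR libraries are blue for most members, NEG -IR replicate 1 is blue for many small and large subunit factors, the irradiated POS libraries lie near the gene mean, and the irradiated NEG libraries lie mostly above it.

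Without irradiation the members were lower in hinge cells. Their median log2 fold change, POS over NEG, was -0.70, against 0.01 for all genes tested, and 43 of the 45 lay below 0. The edgeR quasi-likelihood test called 11 lower and 0 higher at an adjusted p below 0.05, so 24.4% of the members were called lower, beside 1.76% of all genes tested. With the unadjusted p, 34 of the 45 passed the same threshold. Each of the 4 pairings of a POS with a NEG library gave a lower value for 35 members (77.8%), beside 17.5% of all genes. In these bulk samples, fewer cells of a type with high levels and less RNA of the gene per cell cannot be told apart.

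The snoRNP core was low throughout. All 6 genes were lower in every pairing, 5 of the 6 passed the test, and the median log2 fold change was -0.86. Fib, the fibrillarin that methylates rRNA (chromosome arm 2R, 23072909 to 23074725, minus strand), had 170 and 162 CPM in POS -IR, against 270 and 345 CPM in NEG -IR. The log2 fold change was -0.89 (SE 0.15, adjusted p = 0.0126). The C/D box scaffold proteins behaved alike. nop5 had 181 and 186 CPM in POS -IR and 268 and 435 CPM in NEG -IR (log2 fold change -0.94, SE 0.20, adjusted p = 0.0281). Nop56 had 132 and 139 CPM in POS -IR and 196 and 286 CPM in NEG -IR (-0.83, SE 0.17, adjusted p = 0.0292). In both genes the POS libraries lay close together and the NEG libraries were far apart, with no overlap. For the H/ACA particle, which carries out pseudouridylation, the dyskerin Nop60B had 316 and 331 CPM in POS -IR and 468 and 641 CPM in NEG -IR (-0.78, SE 0.16, adjusted p = 0.0267). Its partner NHP2 had 28.7 and 31.5 CPM in POS -IR and 50.1 and 74.2 CPM in NEG -IR (-1.06, SE 0.20, adjusted p = 0.0215), which is 2.08-fold lower. hoip, a protein that binds the snoRNA fold, had 40.0 and 26.7 CPM in POS -IR and 59.3 and 52.1 CPM in NEG -IR, and did not pass the test.

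Among the 9 small subunit factors, Tsr1 was the one called. It encodes a GTPase-like factor of late small subunit maturation and lies on 3L, 21335215 to 21338232, plus strand. Tsr1 had 60.7 and 63.4 CPM in POS -IR, against 118 and 126 CPM in NEG -IR. Both pairs were close together and far from each other, and the 1.97-fold lower level in POS had the smallest p of the 45 (log2 fold change -0.97, SE 0.15, adjusted p = 0.00547). The role's median was -0.68, and 5 of the 9 were lower in every pairing. CG1789, the Utp11 homologue of the small subunit processome, ran the other way at 24.5 and 12 CPM in POS -IR against 16.5 and 14.1 CPM in NEG -IR (log2 fold change 0.26, adjusted p = 0.776). Its POS libraries spanned both NEG values.

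Large subunit factors had a median of -0.71, with 3 of 15 called and 12 lower in every pairing. Ns1, a nucleolar GTPase of the nucleostemin family, had 56.3 and 55.0 CPM in POS -IR against 90.3 and 100 CPM in NEG -IR (-0.78, SE 0.16, adjusted p = 0.0305). Non1, the Nog1 GTPase of early large subunit particles, and CG4364, the Pescadillo homologue, had the highest levels of the 45 per kilobase of exon. Non1 had 811 and 735 CPM in POS -IR and 1190 and 1109 CPM in NEG -IR (-0.57, SE 0.13, adjusted p = 0.0460). CG4364 had 402 and 347 CPM in POS -IR and 585 and 545 CPM in NEG -IR (-0.59, SE 0.14, adjusted p = 0.0460). In all 3 genes the groups did not overlap. The export adaptor Nmd3 had 25.2 and 26.4 CPM in POS -IR and 26.9 and 23.3 CPM in NEG -IR, a log2 fold change of 0.05 within the spread between libraries.

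The exosome genes showed the smallest median, -0.52, and 1 of 9 was called. Mtr3, a subunit of the exosome ring, had 10 and 9.06 CPM in POS -IR against 22 and 18.0 CPM in NEG -IR (-1.06, SE 0.25, adjusted p = 0.0460). Mtr3 had the lowest fold change of the 45. The catalytic subunit Dis3 had 86.9 and 85.9 CPM in POS -IR and 101 and 127 CPM in NEG -IR, and was lower in every pairing without passing the test. Among the other nucleolar factors, CG8064 had 18.5 CPM in both POS -IR libraries and 35.8 and 33.4 CPM in NEG -IR (-0.90, SE 0.21, adjusted p = 0.0413). Nopp140, a chaperone of snoRNPs, had 113 and 164 CPM in POS -IR and 201 and 302 CPM in NEG -IR, with an adjusted p of 0.0579.

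The count of 11 rested on single libraries, while the sign of the median held. It was 21 without NEG -IR replicate 1 and 1 without NEG -IR replicate 2, 2 without POS -IR replicate 2, and 3 to 5 without any 1 of the 8 irradiated libraries, which add to the estimate of spread. The median stayed between -0.85 and -0.50 over all 12 omissions. Between the NEG -IR libraries, 29 members were higher in replicate 2, with a median difference of 0.32 on the log2 scale against -0.00 for all genes. The largest gap was in mbm, with 19.1 and 57.4 CPM in replicates 1 and 2, followed by Nle, wcd and Ns3. The library with the lower member levels, replicate 1, was also the shallower and had the lower muscle precursor sum. Scaling by library size alone moved the median of all genes in this comparison to 0.12 and the split of all calls to 153 higher and 133 lower, from 97 higher and 187 lower with TMM, and 6 members were then called lower.

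**Figure D2:**
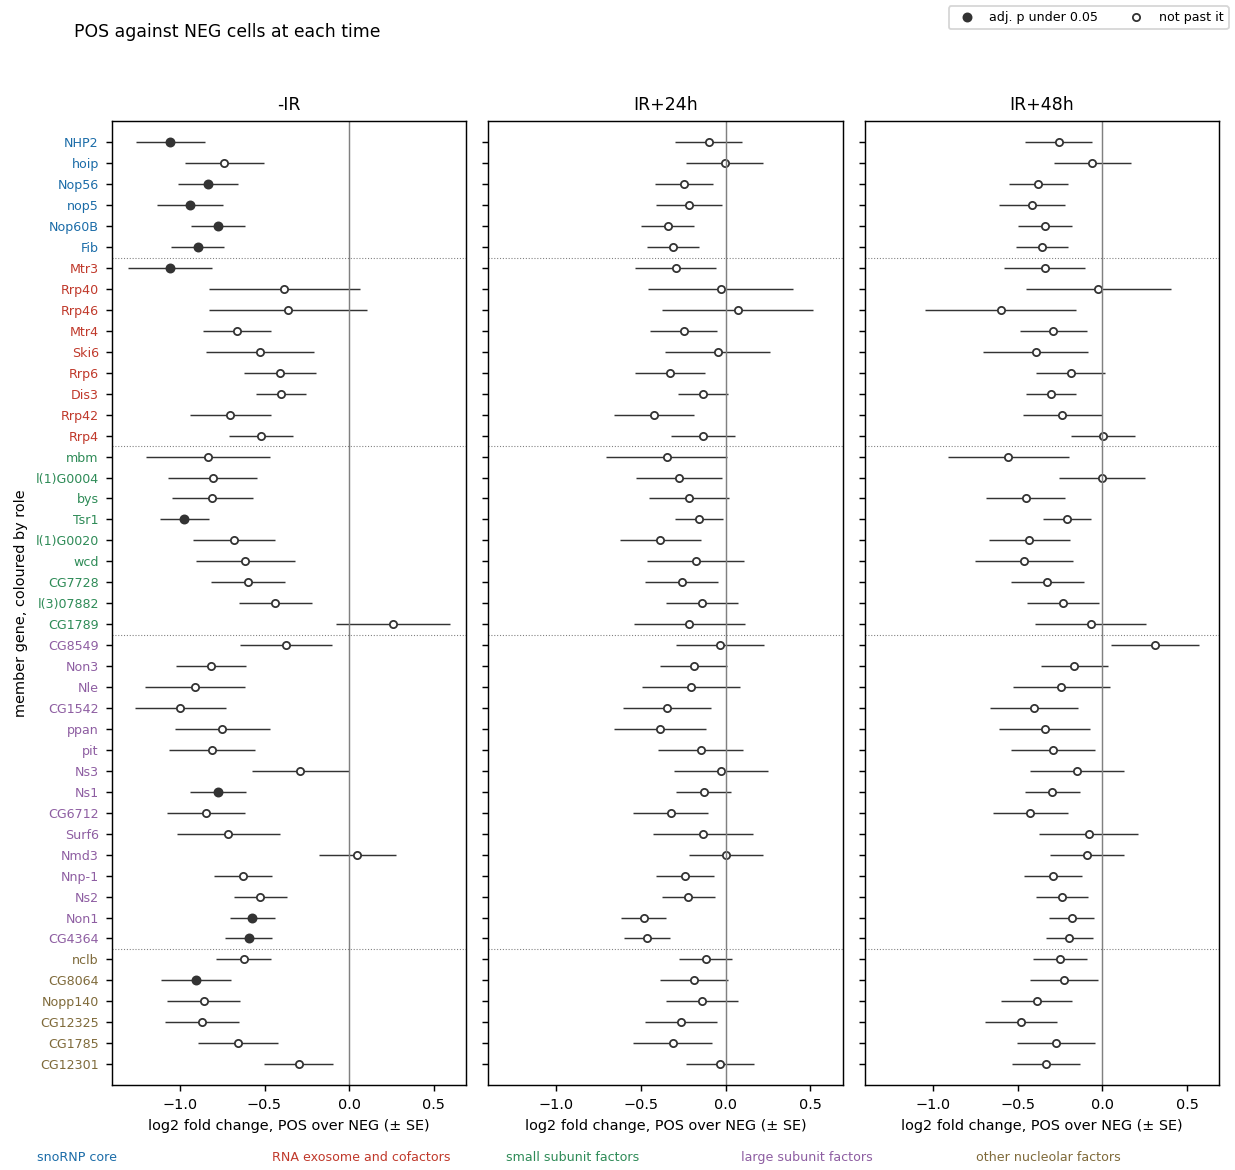
log2 fold change of POS over NEG cells (x axis, ± SE) for each member (rows, coloured by role) in the -IR, IR+24h and IR+48h groups. Filled points are below an adjusted p of 0.05. The 11 filled points are all on the left of 0 in the -IR panel, and the points of the later panels lie nearer to 0 with none filled.

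Irradiation was followed by higher levels of nearly every member in hinge cells. At IR+24h, 44 of 45 members lay above POS -IR, with a median log2 fold change of 0.87 against -0.04 for all genes. edgeR called 16 higher and 0 lower (35.6% of the members, beside 4.14% of all genes called higher), and 38 passed without adjustment. Every pairing of libraries was higher for 42 members (93.3%, beside 23.6% of all genes). At IR+48h all 45 lay above POS -IR, with a median of 0.79. There 8 were called higher (17.8%, beside 1.27% of all genes), 37 passed without adjustment, and 41 were higher in every pairing (91.1%, beside 21.8%). Both times were compared with the same POS -IR libraries, which are also the POS side of the comparison above.

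**Figure D3:**
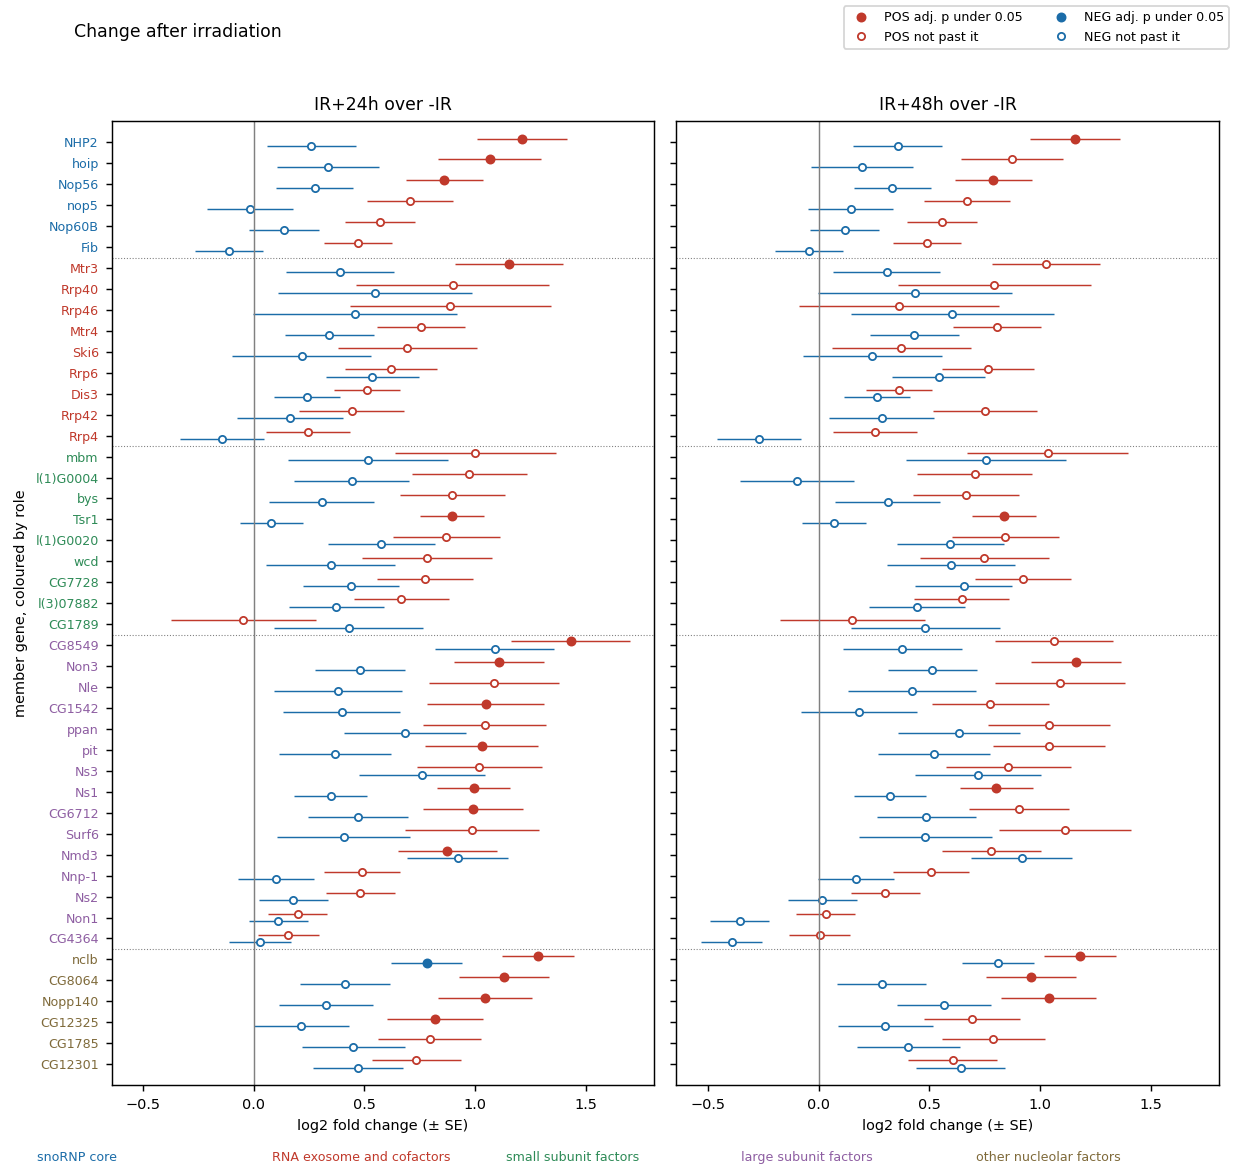
log2 fold change of irradiated over -IR cells (x axis, ± SE) for each member at either time after IR, in POS (red) and NEG cells (blue). Filled points are below an adjusted p of 0.05. At IR+24h 16 POS points and 1 NEG point, nclb, are filled, and most red points lie to the right of the blue point of the same gene.

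nclb, a WD repeat protein of the PWP1 family, gave the smallest p at both times. In POS cells it had 32.7 and 31.6 CPM for -IR, 74.0 and 82.5 CPM at IR+24h and 74.8 and 71.0 CPM at IR+48h. All irradiated libraries lay more than 2-fold above both -IR libraries, and the log2 fold changes were 1.29 (SE 0.16, adjusted p = 0.00109) and 1.18 (SE 0.16, adjusted p = 0.00678). nclb was also the 1 member called in NEG cells, with 85.6 and 84.5 CPM in NEG IR+24h against 44.0 and 54.4 CPM in NEG -IR (0.78, SE 0.16, adjusted p = 0.0279). The call in POS at IR+24h was kept under all 19 alternative settings, with adjusted p from 1.09e-10 to 0.0402. No other member call was: the other calls in POS at IR+24h were kept under 6 (CG12325) to 17 of the 19, those at IR+48h under 6 to 16, and those without IR under 3 (CG8064, Mtr3 and CG4364) to 18 (Tsr1). Nopp140 had 113 and 164 CPM in POS -IR, 271 and 301 CPM at IR+24h and 302 and 268 CPM at IR+48h (adjusted p = 0.0161 and 0.0353). CG8064 had 18.5 CPM in both POS -IR libraries, 35.8 and 45.1 CPM at IR+24h and 39.7 and 32.2 CPM at IR+48h (adjusted p = 0.00813 and 0.0393). CG12325 was called at IR+24h alone of the 2 times (0.82, adjusted p = 0.0497).

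In the snoRNP core all 6 genes were higher in every pairing at both times, with medians of 0.78 at IR+24h and 0.73 at IR+48h. NHP2 had 28.7 and 31.5 CPM in POS -IR, 68.1 and 71.6 CPM at IR+24h and 69.5 and 64.8 CPM at IR+48h. The fold changes were 2.32 (log2 1.21, SE 0.20, adjusted p = 0.00524) and 2.23 (log2 1.16, SE 0.20, adjusted p = 0.0231). Nop56 had 132 and 139 CPM in POS -IR, 236 and 257 CPM at IR+24h and 244 and 225 CPM at IR+48h (adjusted p = 0.0152 and 0.0470). The irradiated libraries of both genes sat in a narrow band well above the -IR pair. hoip had 63.2 and 76.2 CPM at IR+24h against 40.0 and 26.7 CPM without IR and passed at that time (1.07, SE 0.23, adjusted p = 0.0214). Fib, nop5 and Nop60B had IR+24h log2 fold changes of 0.47, 0.71 and 0.57 and did not pass after adjustment. Their levels at IR+24h were 218 and 241 CPM for Fib, 293 and 306 CPM for nop5 and 457 and 505 CPM for Nop60B, with no overlap with the -IR libraries.

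**Figure D4:**
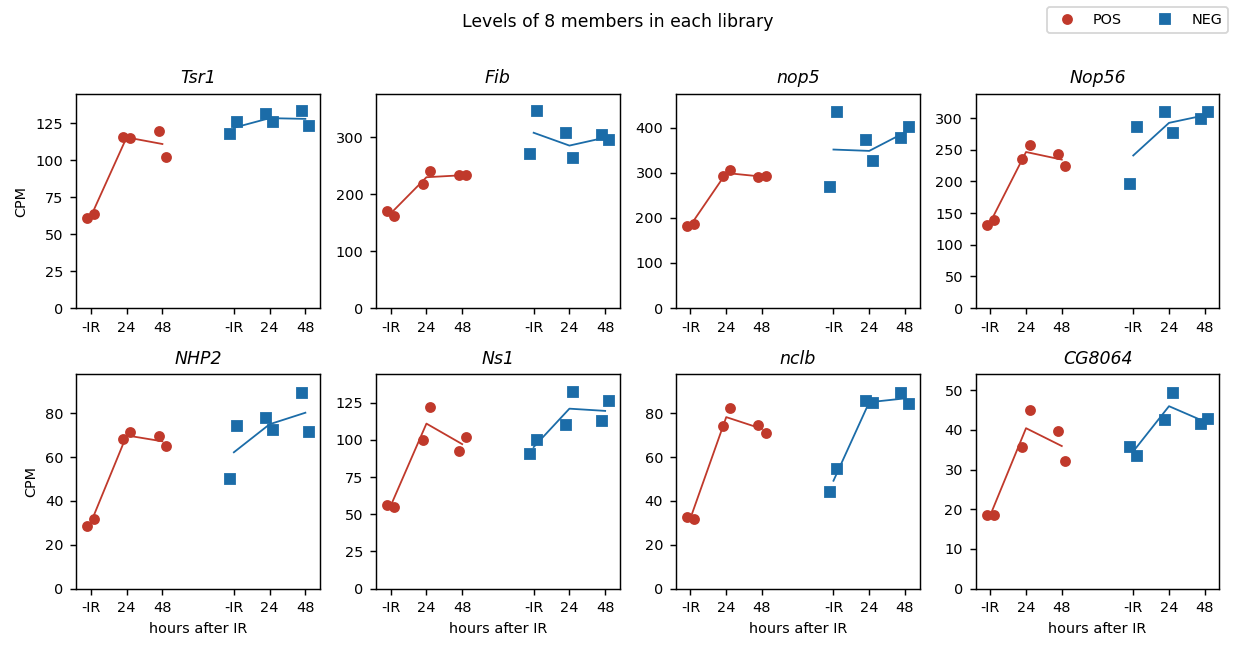
Level in CPM (y axis, from 0) of 8 members in every library, at -IR, IR+24h and IR+48h (x axis), POS cells on the left as red circles and NEG cells on the right as blue squares, with lines through the means of 2 libraries. In all 8 panels the POS -IR pair is the lowest of the POS points, and among the NEG pairs nclb alone passed the test at IR+24h.

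Tsr1 had 60.7 and 63.4 CPM in POS -IR, 116 and 115 CPM at IR+24h and 120 and 102 CPM at IR+48h. The change was 1.86-fold at IR+24h (log2 0.90, SE 0.14, adjusted p = 0.00434) and 1.79-fold at IR+48h (log2 0.84, SE 0.14, adjusted p = 0.0223). NEG cells held it at 118 and 126 CPM for -IR, 131 and 126 CPM at IR+24h and 133 and 123 CPM at IR+48h. The POS libraries lay far below all NEG libraries before irradiation and just below or among them after it. Tsr1 was the only small subunit factor called at either time. mbm, bys, wcd, CG7728, l(1)G0020, l(1)G0004 and the Nop14 homologue had IR+24h log2 fold changes of 0.67 to 1.0 and were higher in every pairing. CG1789 was again the exception, with 15.0 and 20.3 CPM in POS IR+24h against 24.5 and 12 CPM in POS -IR (log2 fold change -0.05, adjusted p = 0.967).

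Large subunit factors gave 7 of the 16 calls at IR+24h. CG8549, the SBDS homologue of late large subunit maturation, had the highest fold change of the 45, with 34.4 and 35.1 CPM in POS IR+24h against 14.4 and 11.4 CPM in POS -IR (log2 1.43, SE 0.27, adjusted p = 0.0101). At IR+48h it had 28.1 and 25.7 CPM and an adjusted p of 0.0764. Non3, the Rpf2 homologue that brings the small ribosomal RNA of the large subunit into the particle, had 17.1 and 16.3 CPM in POS -IR, 33.6 and 38.5 CPM at IR+24h and 40.3 and 34.7 CPM at IR+48h (adjusted p = 0.00894 and 0.0231). Ns1 had 56.3 and 55.0 CPM in POS -IR, 99.9 and 122 CPM at IR+24h and 92.3 and 102 CPM at IR+48h (adjusted p = 0.00497 and 0.0353). In these genes every irradiated library exceeded both -IR libraries. The helicase pit, the export adaptor Nmd3, CG6712 and CG1542 made up the other calls at IR+24h, with log2 fold changes of 0.87 to 1.05 and adjusted p between 0.0271 and 0.0446. Non1 and CG4364 stood at the low end of the 45, with 839 and 935 CPM in POS IR+24h against 811 and 735 CPM in POS -IR for Non1 (log2 0.20) and 387 and 447 CPM against 402 and 347 CPM for CG4364 (log2 0.16). At IR+48h their log2 fold changes were 0.03 and 0.01.

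In the exosome, Mtr3 was called at IR+24h with 18.4 and 24.1 CPM in POS IR+24h against 10 and 9.06 CPM in POS -IR (log2 1.15, SE 0.25, adjusted p = 0.0194). Mtr4, the helicase that feeds RNA to the exosome, had 71.1 and 93.5 CPM in POS IR+24h against 50.8 and 46.7 CPM in POS -IR (0.76, adjusted p = 0.0511). Rrp46, of the exosome ring, and Rrp40, an RNA-binding cap, were the least abundant members. Rrp40 had 11.1 and 17.7 CPM in POS IR+24h against 11.4 and 4.09 CPM in POS -IR, and Rrp46 had 10.8 and 14.4 CPM against 9.64 and 4.03 CPM. POS -IR replicate 2 was the low library in both. That library held 66 counts of Rrp40 and 65 of Rrp46, and their SE were 0.44 for Rrp40 and 0.45 for Rrp46. The lowest member count given above, 33, was Rrp40 in NEG -IR replicate 1.

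Single libraries also set these counts. At IR+24h the 16 calls became 32 without either NEG -IR library, 9 without POS -IR replicate 2 or POS IR+24h replicate 1, and 1 without POS IR+24h replicate 2. The 8 calls at IR+48h became 24 without either NEG -IR library, 4 without any 1 of the IR+24h libraries or the NEG IR+48h libraries, 2 without POS -IR replicate 2 and 0 without either POS IR+48h library, where limma voom and DESeq2 on all 12 libraries called 9 and 21. The medians ranged from 0.73 to 0.94 at IR+24h and from 0.72 to 0.85 at IR+48h over the omissions. POS IR+24h replicate 2 had 43 of the 45 members above replicate 1, with a median difference of 0.19 on the log2 scale beside 0.01 for all genes. In POS cells the muscle precursor sum was higher after IR than without it, as the members were. Of its markers, htl was called higher at IR+24h and twi, htl and stumps at IR+48h. From IR+24h to IR+48h the sum in POS rose from 108 and 100 CPM to 225 and 244 CPM, with a member median of -0.06. In NEG cells the sum was 641 and 1788 CPM for -IR and 918 and 554 CPM at IR+24h. There 1 of the 5 markers was called lower, with a member median of 0.37. The member changes with the muscle precursors left out were not measured.

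NEG cells showed smaller changes in the same direction. At IR+24h the median was 0.37 and 42 of 45 lay above 0, and at IR+48h it was 0.38 and 40 of 45 lay above 0. edgeR called nclb alone at IR+24h (2.22% of the members, beside 1.89% of all genes), with 9 passing unadjusted. At IR+48h it called 0 members, beside 0.113% of all genes, with 12 at an unadjusted p below 0.05, 0 called by limma voom and 2 by DESeq2. Of those 12, 10 were higher, and the lower ones were Non1 and CG4364, which with Rrp4 were lower in every pairing. Every pairing was higher for 27 members at IR+24h (60.0%, beside 21.1% of all genes) and for 26 at IR+48h (57.8%, beside 18.3%). CG8549 and Nmd3 came next after nclb at IR+24h. CG8549 had 32.1 and 38.9 CPM in NEG IR+24h against 20.8 and 13.1 CPM in NEG -IR (1.09, SE 0.27, adjusted p = 0.0684). Nmd3 had 48.1 and 46.5 CPM in NEG IR+24h against 26.9 and 23.3 CPM in NEG -IR (0.92, SE 0.23, adjusted p = 0.0684). Both were higher in every pairing. The snoRNP core had the smallest NEG median at IR+24h, 0.20, with Fib at 307 and 263 CPM in NEG IR+24h against 270 and 345 CPM in NEG -IR (-0.11) and nop5 at 372 and 325 CPM against 268 and 435 CPM (-0.02). The NEG medians depended on which -IR library was kept. At IR+24h they were 0.14 without NEG -IR replicate 1 and 0.56 without replicate 2, and at IR+48h 0.23 and 0.50. The counts called without NEG -IR replicate 2 were 8 at IR+24h and 7 at IR+48h, the IR+24h count was 3 without POS -IR replicate 1 and 2 without POS -IR replicate 2, and nclb lost its call at IR+24h without any 1 of the 8 irradiated libraries.

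**Figure D5:**
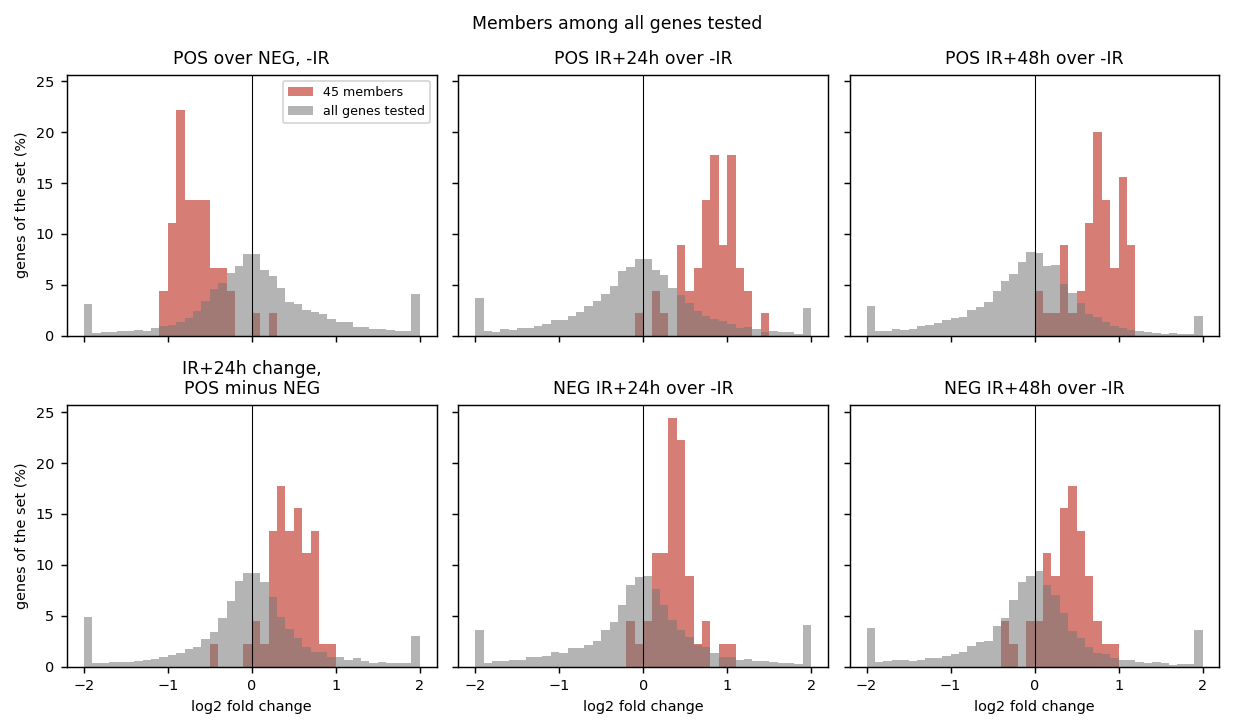
Distribution of the log2 fold change (x axis, bins of 0.1, with values beyond 2 in the outermost bins) for the 45 members (red) and all genes tested (grey), as a percentage of each set (y axis), in 6 comparisons. The members lie left of 0 for POS over NEG without IR, right of 0 for both POS changes, and nearer to 0, still mostly to the right, for the NEG changes.

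The difference between the POS and NEG changes was tested directly. Its median over the members was 0.43 at IR+24h and 0.40 at IR+48h, with 43 and 41 of 45 above 0. edgeR called 0 members at IR+24h, beside 0% of all genes, with 12 members at an unadjusted p below 0.05 and 0 called by limma voom or DESeq2. At IR+48h it again called 0, beside 0.0188% of all genes, with 6 unadjusted and 0 called by limma voom or DESeq2. A larger response of single members in POS than in NEG cells was therefore not shown after adjustment. In all 16 combinations of single libraries the POS change was the larger for 19 members at IR+24h (42.2%, beside 6.24% of all genes) and for 17 at IR+48h (37.8%, beside 7.18%). All 6 snoRNP core genes were among them at both times. NHP2 had the highest value at IR+24h, 0.95 (SE 0.28, unadjusted p = 0.00589), and Tsr1 followed with 0.82 (SE 0.20, unadjusted p = 0.00180), both with an adjusted p of 1.0. CG1789 and Nmd3 had log2 differences of -0.48 and -0.05 at IR+24h, and CG1789, Rrp46 and Nmd3 had -0.33, -0.24 and -0.14 at IR+48h. This test uses the NEG -IR libraries again, and the median at IR+24h was 0.63 without replicate 1 and 0.25 without replicate 2.

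After irradiation no member was called between POS and NEG cells. The member median of POS over NEG was -0.22 for IR+24h, with -0.29 for IR+48h, and 43 of 45 members lay below 0 at each time. The IR+24h median was -0.09 without POS IR+24h replicate 1 and -0.33 without replicate 2. How these values differ from those without IR is the difference of changes given above, in which no member was called. edgeR called 0 members at IR+24h, beside 0.301% of all genes called lower, with 2 at an unadjusted p below 0.05, and 0 at IR+48h, beside 0.160%, with 3 unadjusted. limma voom and DESeq2 also called 0 at both times. Every pairing was lower in POS for 29 members at IR+24h (64.4%, beside 24.8% of all genes) and for 34 at IR+48h (75.6%, beside 21.0%). Members with the smallest unadjusted p at IR+24h were Non1, with 839 and 935 CPM in POS and 1297 and 1187 CPM in NEG, and CG4364, with 387 and 447 CPM in POS and 582 and 571 CPM in NEG. At IR+48h they were Fib, with 233 CPM in both POS libraries against 304 and 294 CPM in NEG, CG12325 and Nop56. The members above 0 were Rrp46 (0.07) and Nmd3 (0.00) at IR+24h, and CG8549 (0.31) and Rrp4 (0.00) at IR+48h. CG8549 had 28.1 and 25.7 CPM in POS IR+48h against 24.1 and 19.3 CPM in NEG IR+48h.

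Between the irradiated times little was measured to move. For IR+48h over IR+24h the member median was -0.06 in POS and 0.02 in NEG cells, edgeR called 0 members in each (beside 0% of all genes), and 0 and 3 members passed without adjustment. limma voom and DESeq2 called 0 members in either. The 3 in NEG cells were Non1, CG4364 and CG8549. Non1 had 945 and 850 CPM in NEG IR+48h against 1297 and 1187 CPM in NEG IR+24h (-0.47, adjusted p = 0.400), and CG4364 had 446 and 415 CPM against 582 and 571 CPM (-0.42, adjusted p = 0.552). Both were below both NEG -IR libraries at IR+48h too. Without Non1 and CG4364 the median of POS over NEG cells for -IR was -0.71 and that of the POS change at IR+24h 0.89.

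Rrp4, an RNA-binding cap of the exosome, had small changes of opposite sign in the sorted pools. It had 37.2 and 40.1 CPM in POS IR+24h against 36.7 and 28.6 CPM in POS -IR, higher in every pairing (log2 0.25), and 45.6 and 39.3 CPM in NEG IR+24h against 46.2 and 47.4 CPM in NEG -IR, lower in every pairing (-0.14). None of these changes passed the test. Among all genes tested, 23.6% were higher in every such POS pairing, and 1951 of 10617 were lower in every such NEG pairing.

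The wider pathway was measured with 135 other ribosome biogenesis genes, taken from a gene list the study applied to these same samples, without ribosomal proteins and the 45 members, so that their direction is not independent evidence. In POS against NEG cells without IR, 13 of the 135 were called lower, beside 1.76% of all genes, and 0 higher. Their median was -0.43, against 0.01 for all genes. At IR+24h, 29 were called higher in POS and 6 in NEG cells, beside 4.14% and 1.89% of all genes. The medians were 0.54 and 0.30, against -0.04 and -0.01 for all genes. At IR+48h, 15 were called higher in POS and 0 in NEG cells, beside 1.27% and 0.113% of all genes. The medians there were 0.45 and 0.28, against -0.05 and -0.02 for all genes. After IR none of the 135 was called lower. Among 3 RNA polymerase I subunits, RpI135, the second largest subunit, had 21.5 and 27.5 CPM in POS -IR, 58.3 and 65.0 CPM at IR+24h and 56.0 and 46.9 CPM at IR+48h, and was called at both times (adjusted p = 0.00217 and 0.0231). In NEG cells RpI135 had 46.7 and 56.8 CPM for -IR, 80.6 and 79.2 CPM at IR+24h and 66.1 and 71.4 CPM at IR+48h and was not called. RpI1 and RpI12 were called in none of these comparisons. RpI12 had the opposite sign without IR, with 8.50 ± 3.59 CPM in POS -IR against 4.55 ± 0.066 CPM in NEG -IR (SD, n = 2 each, log2 fold change 0.91), and -0.10 in POS at IR+24h. RpI135 was also lower in POS -IR than in NEG -IR (-1.08, adjusted p = 0.0137).

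Of 4 growth regulators, Myc, the activator of this pathway, was called lower in POS -IR, with 301 and 367 CPM against 519 and 568 CPM in NEG -IR (-0.70, SE 0.16, adjusted p = 0.0458). Of the exon bases of Myc, 40.9% overlap a gene on the other strand and 20.3% one on the same strand. How reads in these overlaps were assigned or dropped is not given, so its level is uncertain. After irradiation its level was not called changed. Myc had 377 and 334 CPM in POS IR+24h and 289 and 271 CPM in POS IR+48h, with log2 fold changes over POS -IR of 0.09 and -0.25 that did not pass. Mnt, a repressor that shares the partner Max with Myc, had 69.0 and 70.5 CPM in POS IR+24h against 101 and 119 CPM in POS -IR (-0.66, SE 0.17, adjusted p = 0.0410). At IR+48h Mnt had 87.5 and 83.2 CPM in POS cells and was not called (adjusted p = 0.335). In NEG cells Mnt had 74.6 and 90.6 CPM at IR+24h against 114 and 113 CPM for -IR (adjusted p = 0.244). Max and Tif-IA, an initiation factor of RNA polymerase I, were not called in these comparisons.

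All 45 members matched the Ensembl annotation of the Release 6 genome, where CG8549 is named Sbds. They spread over all major chromosome arms, with 10 on 2L, 9 on 2R, 7 on 3L, 12 on 3R and 7 on X. CG1785, l(1)G0020 and CG1789 are neighbours on X (8714936 to 8721503), where CG1785 and l(1)G0020 overlap by 353 bases on opposite strands and CG1789 starts 242 bases further on. None of these 3 was called in any comparison, and their POS IR+24h log2 fold changes were 0.79 for CG1785, 0.87 for l(1)G0020 and -0.05 for CG1789. hoip and CG4364 lie 8461 bases apart on 2L (9699791 to 9711271). A snoRNA gene lies inside 4 members on the same strand (8.89%), against 0.844% of 9831 tested protein-coding genes. They are Nop60B with 7 snoRNA genes and Fib, nop5 and pit with 1 each, and 3 of these 4 hosts encode snoRNP core proteins. The libraries were made from polyadenylated RNA, and the snoRNAs were not analysed here.

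The members were expressed above the typical gene. Their median level was 48.6 CPM against 18.9 CPM for tested protein-coding genes, and per kilobase of exon it was 28.3 against 9.77 CPM. Per kilobase Non1 was highest at 420, followed by CG4364 at 215 and Fib at 192, and Rrp40 was lowest at 11.9. Over 10% of the exon bases of 4 members overlapped a gene on the other strand, 35.1% in Rrp40 (with Eno), 29.3% in the Nop14 homologue (with P5cr-2), 19.4% in Tsr1 (with Tbc1d8-9) and 12.4% in CG1785 (with l(1)G0020). Whether counting used the strand is not given in the sources used here, nor how reads in these overlaps were assigned or dropped, so these levels are uncertain.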

How the data were processed

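The authors sorted dissociated wing discs, sequenced polyadenylated RNA of 12 libraries and aligned trimmed reads with STAR 2.6.0a to the fly genome BDGP6. The deposited values are raw counts of reads per gene, with no normalization, in 1 table. 1 column of no sample was not used. Whether counting used the strand is not given in the sources used here.

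Counts were tested with edgeR 4.0.16 (R 4.3.3) by the quasi-likelihood test, with TMM scaling, filterByExpr and 6 group means fitted over all 12 libraries, and Benjamini-Hochberg adjustment over 10617 genes at a threshold of 0.05. CPM use TMM effective library sizes. The biological coefficient of variation was 0.3028. Shares over pairings use all 4 pairs of single libraries of 2 groups, or 16 combinations for a difference of changes. The scripts were tested on simulated data. Total counts ranged from 4211088 to 19940040. The SE of log2 fold changes were derived from the edgeR test, as the absolute log2 fold change over the square root of its F statistic. The alternatives were limma 3.58.1 voom, DESeq2 1.42.0, library size alone, no filter, at least 1 CPM in all libraries, a replicate block, only the groups compared, and 12 fits that each left out 1 library.

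The members and lists were chosen with earlier results of these data known. Values in every library are given for up to 10 members with the smallest adjusted p among those past the threshold in a comparison, for up to 3 members against the sign of the median, and for Tsr1 and the snoRNP core, with some further members named after their values were seen. The labels number the replicates without saying what a number shares, so p-values measure the spread between these samples. Gene positions and overlaps come from the Ensembl annotation of BDGP6.54, a later release than the one the paper counted against. Promoter and protein sequences were not used here.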

Additional observations from a re-analysis of the deposited data

Results flagged for a closer look

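Rrp4 had a higher level in every irradiated POS library than in either POS -IR library, and a lower level in every irradiated NEG library than in either NEG -IR library. The POS change minus the NEG change was 0.39 on the log2 scale at IR+24h and 0.53 at IR+48h. Opposite signs in the sorted pools marked it for a closer look. In POS cells, 23.6% of all genes at IR+24h and 21.8% at IR+48h were higher in every pairing. In NEG cells, 1951 and 1812 of the 10617 genes were lower in every pairing at these times. How many genes did both was not counted. The difference of the changes was tested in the edgeR fit across all genes, and Rrp4 did not pass at either time (adjusted p = 1.0 at both). In NEG cells the level was 39.8 and 37.9 CPM at IR+48h, against 46.2 and 47.4 CPM for -IR.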

How the results depend on the processing

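The signs of the member medians held under all alternatives run, except for POS IR+48h over IR+24h, where the median of -0.06 became 0.03 without POS IR+24h replicate 2 and ranged from -0.13 to 0.03 over the omissions. Over the omissions the NEG median at IR+24h ranged from 0.14 to 0.56 and the median difference of the changes at IR+48h from 0.12 to 0.57. Counts of members called moved more. For POS over NEG without IR (11), DESeq2 called 18, library size alone 6, at least 1 CPM in all libraries 6 and only the groups compared 0, and leaving out single libraries gave 1 to 21. For POS at IR+24h (16), limma voom called 26, DESeq2 30, library size alone 25, no filter 28 and only the groups compared 1, and the omissions gave 1 to 32. For NEG at IR+24h (1), DESeq2 and no filter called 3 and only the groups compared 0, and the omissions gave 0 to 8. For POS at IR+48h (8), DESeq2 called 21, no filter 22 and only the groups compared 0, and the omissions gave 0 to 24. For NEG at IR+48h (0), DESeq2 and no filter called 2, and the omissions gave 0 to 7. For POS over NEG at IR+24h (0), only the groups compared gave 2. The fits on only the groups compared hold fewer samples. With the replicate number as a block, 9, 16, 1 and 7 members were called for POS over NEG without IR, POS and NEG at IR+24h and POS at IR+48h, and 0 in the others. Deviations of same-numbered libraries correlated between -0.17 and 0.43 over all pairs of groups, and between POS and NEG of the same time at 0.43 for -IR, 0.09 for IR+24h and 0.14 for IR+48h. What a number shares is not given, so the main fit left the samples unpaired. The paper sorted both pools from dissociated discs, so POS and NEG libraries of the same time may share discs. These correlations do not exclude such a pairing of POS with NEG cells within a time. The block fit allowed only for a shift shared by all groups, and no fit with pairs within a time was run. Signs of members near 0 turned as follows, and the cause was not tested. Over the omissions, POS over NEG without IR ranged from -0.34 to 0.69 for CG1789 and from -0.03 to 0.15 for Nmd3. The POS change of CG1789 at IR+24h ranged from -0.48 to 0.56 and was 0.09 with limma voom. The NEG change at IR+24h ranged from -0.30 to 0.09 for Fib and from -0.34 to 0.39 for nop5, which had 0.03 with library size alone and 0.00 with the replicate block. POS over NEG at IR+24h ranged from -0.15 to 0.30 for Rrp46 and from -0.32 to 0.26 for Nmd3, which had -0.02 with limma voom and -0.01 with the replicate block. Rrp4 in POS over NEG at IR+48h ranged from -0.05 to 0.04 and was -0.00 with DESeq2. The difference of the changes ranged from -0.90 to 0.12 at IR+24h and from -0.77 to 0.27 at IR+48h for CG1789, from -0.37 to 0.22 and from -0.29 to 0.00 for Nmd3, and from -0.76 to 0.50 at IR+48h for Rrp46. Depth was lowest in NEG -IR replicate 1, and 2 libraries a group limit what can be called.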
